A study of Mus musculus with 12 samples.

Results

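The genes described here encode 4 subunits of the MuvB core (Lin9, Lin37, Lin52 and Lin54) and the MYB-family transcription factors A-MYB (Mybl1) and B-MYB (Mybl2). They are 6 of the 19938 genes measured, and were picked by name: a gene is represented by a probe set that carries no other symbol, and where several qualified, by whichever had the highest 12-array mean. All 6 were measured, by 7 probe sets, of which Lin52 had 2. RNA came from mouse embryonic fibroblasts, primary connective-tissue cells explanted from embryos, that were taken at passage 4 and kept for 72 h in 0.1% fetal bovine serum so that growth stopped. There were 4 groups with 3 arrays each. The S set holds Rb1 S/S mutant cells and the Rb1 +/+ cells matched to them, and the L set holds Rb1 L/L mutant cells and the Rb1 +/+ cells matched to those. The labels do not define the S and L alleles, nor do they say whether replicates came from different embryos, so p-values describe the spread among these samples, which may be technical.

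The MuvB core is a chromatin-bound complex that changes partners through the cell cycle. In quiescent cells it joins the pocket proteins p130 or p107 with E2F4 and a DP subunit in the DREAM complex, which represses cell cycle genes. When cells re-enter the cycle those partners leave, and MuvB binds B-MYB and later FOXM1 to activate genes of late S phase and mitosis. Mybl2 itself is a classic E2F target that DREAM keeps low in resting cells. The retinoblastoma protein, the product of Rb1, is a relative of p107 and p130 and is not a DREAM subunit. The comparisons below ask whether the RNA of the MuvB and MYB genes differs between each Rb1 mutant and its wild type under serum deprivation.

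Arrays had median log2 values from 6.85 to 7.01. Replicate 1 of the S-set wild type stood apart, with an interquartile range of 3.10 against at least 3.39 elsewhere, so results that moved clearly when it was left out are also given without it. Low Xist with high Eif2s3y marked replicate 1 of the L-set wild type and replicate 1 of L/L as male, and the other 10 arrays as female. Markers of fibroblasts (14 genes, among them Col1a1, Vim and Pdgfra) had group means of 11.72 to 11.88 on the log2 scale. Rb1 RNA was present in every group, at 8.34 to 8.89 in the S-set wild type, 9.35 to 9.72 in S/S, 8.61 to 9.23 in the L-set wild type and 9.23 to 9.39 in L/L.

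No member passed the test in either mutant. The test was limma's moderated test, with p-values adjusted by the Benjamini-Hochberg method over all 19938 genes and a threshold of 0.05. In S/S 0 of 6 members passed, where 0.12% of all genes did, and 2 members (Mybl1 and Lin52) had an unadjusted p under 0.05, where 10.1% of all genes did. In L/L 0 of 6 passed, where 0.0401% of all genes did, and 0 had an unadjusted p under 0.05, where 3.27% of all genes did. The S/S effect less the L/L effect also passed for 0 of 6, where 0.015% of all genes passed. The median log2 difference of the 6 genes was −0.02 in S/S and 0.03 in L/L, beside −0.04 and 0.02 over all genes.

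Counted by arrays, all 3 S/S arrays lay above all 3 wild-type arrays for 2 of 6 members, Lin52 and Mybl1, where 5.49% of all genes did so. None of the 6 lay wholly below, where 6.29% of all genes did. In L/L 1 of 6, Lin52, lay wholly above, where 9.71% of all genes did, and none lay wholly below, where 5.1% of all genes did. For single genes in 3 against 3 arrays, the smallest p that an exact permutation test can reach is 0.1.

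**Figure D1:**
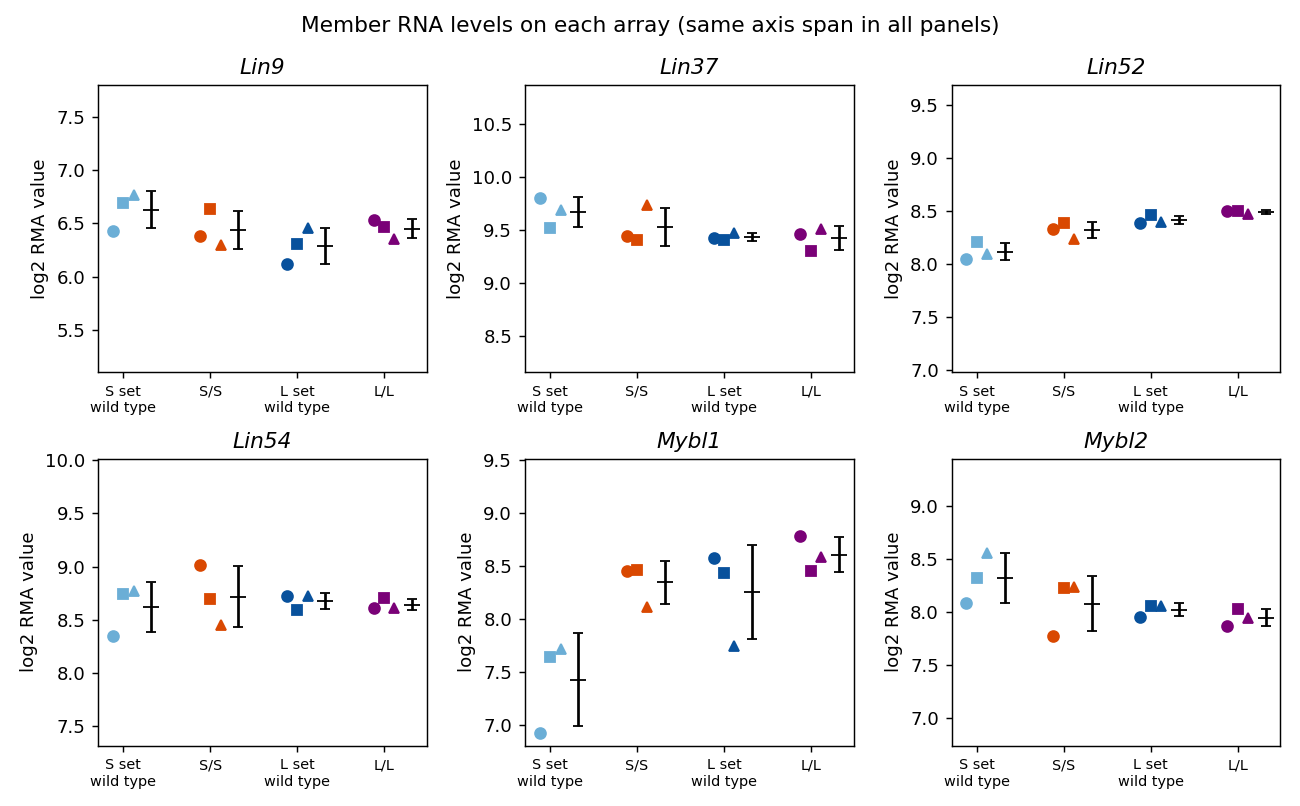
Log2 RMA values of the 6 genes on each array, by group. Points are arrays (circle, square and triangle for replicates 1, 2 and 3), the bar with whiskers is the mean with its SD (n = 3), and each vertical axis spans the same number of log2 units. Mybl1 ran from 6.93 to 8.78, the widest range of the 6, and the S-set wild type was its lowest group.

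Among the MuvB subunits, Lin52 gave the steadiest values. LIN52 is the small subunit that is phosphorylated by the kinase DYRK1A and then docks p130 or p107 onto MuvB. Its log2 values were 8.04, 8.21 and 8.10 in the S-set wild type and 8.33, 8.38 and 8.24 in S/S. In the L set the controls read 8.39, 8.46 and 8.40, and the L/L arrays 8.50, 8.50 and 8.47. The groups do not overlap in either set, and they ascend from the S-set wild type through S/S and the L-set wild type to L/L.

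The steps for Lin52 were small. The S/S difference was 0.20 (SE 0.09, 95% confidence interval 0.01 to 0.40), which is 1.15-fold, and it did not pass (limma adjusted p = 0.486, exact permutation p = 0.1, n = 3 per group). The L/L difference was 0.07 (SE 0.09, interval −0.12 to 0.27, adjusted p = 1.00 by limma). Its second probe set gave differences of 0.15 in S/S and 0.05 in L/L. With that probe set the S/S arrays again lay above the wild-type arrays, but the L/L arrays overlapped theirs. L-set wild type exceeded S-set wild type by 0.30 (SE 0.09, limma adjusted p = 0.0584), more than either mutant differed from its own control. That difference passed when genes of mean under 6 were left out (limma adjusted p = 0.0422) and with array weights (limma adjusted p = 0.00336), where 6520 of all genes passed.

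Lin54 varied between arrays without separating the groups. LIN54 is the DNA-binding subunit, which reads the CHR element in promoters of mitotic genes. Its log2 values were 8.35, 8.75 and 8.77 in the S-set wild type, 9.02, 8.69 and 8.45 in S/S, 8.73, 8.59 and 8.72 in the L-set wild type, and 8.61, 8.70 and 8.61 in L/L. The highest and the lowest of its 12 values both fell in the S set. The difference was 0.10 in S/S (SE 0.15, interval −0.22 to 0.41) and −0.04 in L/L (SE 0.15, interval −0.35 to 0.28). The S/S value turned to −0.04 without replicate 1 of the S-set wild type and to −0.05 without replicate 1 of S/S.

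Lin9 was highest in the S-set wild type and lowest in the L-set wild type. LIN9 is a scaffold subunit that takes part in the contact of MuvB with B-MYB. The S-set values were 6.43, 6.69 and 6.77 in wild type and 6.38, 6.64 and 6.29 in S/S. In the L set the controls read 6.11, 6.31 and 6.45, and the L/L arrays 6.53, 6.47 and 6.36. Mutant and wild-type arrays overlapped in both sets, and the differences had opposite signs, −0.19 in S/S (SE 0.13, interval −0.47 to 0.09) and 0.16 in L/L (SE 0.13, interval −0.12 to 0.44). The S/S value was −0.29 without replicate 1 of the S-set wild type, and the L/L value 0.03 without both male arrays. The difference between these effects was −0.36 (SE 0.18) and did not pass (limma adjusted p = 0.779, unadjusted p = 0.0753).

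Lin37 showed no separation by genotype. LIN37 is a subunit that the DREAM complex needs for repression. Its values were 9.80, 9.52 and 9.69 in the S-set wild type and 9.45, 9.40 and 9.73 in S/S, against 9.43, 9.40 and 9.47 in the L-set wild type and 9.46, 9.30 and 9.51 in L/L. The S/S difference was −0.14 (SE 0.12, interval −0.39 to 0.11) and the L/L difference −0.01 (SE 0.12, interval −0.26 to 0.24). Leaving out single arrays moved the S/S value between −0.24 (without replicate 3 of S/S) and −0.08 (without replicate 1 of the S-set wild type). Over Lin9, Lin37, Lin52 and Lin54 the interval bounds in either mutant ran from −0.47 to 0.44 on the log2 scale.

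**Figure D2:**
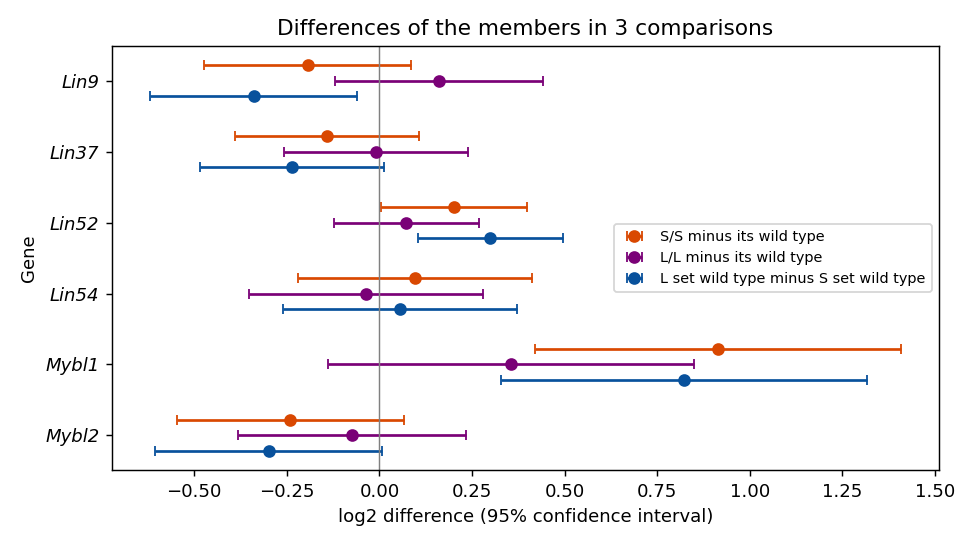
Log2 differences of the 6 genes, mutant minus matched wild type and L-set wild type minus S-set wild type, with 95% confidence intervals from the fit across all genes (3 arrays per group). The intervals for Lin52 and Mybl1 lie above 0 in S/S, and none of the 6 L/L intervals excludes 0.

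Mybl1 differed most. A-MYB is best known as a master regulator of male meiosis and is normally low in somatic cells. Its log2 values in the S set were 6.93, 7.64 and 7.72 in wild type, a mean of 7.43 ± 0.43 (SD, n = 3), and 8.46, 8.46 and 8.11 in S/S, a mean of 8.35 ± 0.20 (SD, n = 3). All S/S arrays lay above all wild-type arrays. The difference of 0.91 (SE 0.23, interval 0.42 to 1.41), which is 1.88-fold, placed it at rank 150 of 19938 genes by p and did not pass (limma adjusted p = 0.197, exact permutation p = 0.1). It was 0.66 (adjusted p = 0.241) without replicate 1 of the S-set wild type, the array that stood apart and held the lowest Mybl1 value. Over all alternatives tried the limma adjusted p ran from 0.0612 with array weights (0.69) to 0.546.

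In the L set the Mybl1 values of the controls were 8.57, 8.44 and 7.75, and those of the L/L arrays 8.78, 8.45 and 8.58. Replicate 3 of the L-set wild type was low, and the groups overlapped. The L/L difference was 0.35 (SE 0.23, interval −0.14 to 0.85, limma adjusted p = 1.00). It fell to 0.10 without that array, and it was 0.43 without both male arrays. The S/S effect exceeded the L/L effect by 0.56 (SE 0.32), which did not pass (limma adjusted p = 0.785). It was 0.31 without replicate 1 of the S-set wild type, and ran from 0.31 to 0.81 over the fits that left out 1 array.

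Mybl1 was the 1 member to pass between the wild types, which share the Rb1 +/+ genotype. The L-set wild type exceeded the S-set wild type by 0.82 (SE 0.23, limma adjusted p = 0.043), a comparison in which 8.71% of all genes passed. The call was lost in 9 of the 12 fits that left out 1 array, those without replicate 1 of the S-set wild type (0.57, limma adjusted p = 0.0918), replicate 1 or 2 of the L-set wild type (0.66 and 0.73), or any array of S/S or L/L. It was also lost without both male arrays (0.66, adjusted p = 0.222). The S/S mean of 8.35 lay near the 8.25 of the L-set wild type, and the S-set wild type was the lowest group. The order of the means was S-set wild type, L-set wild type, S/S and L/L, of which the last 3 overlapped in their arrays.

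Markers of other cells were examined on the same arrays. In S/S the 11 macrophage markers, among them Adgre1, Csf1r and Itgam, were higher in 11 of 11 cases by a median of 0.68, although 0 passed and 1 had an unadjusted p under 0.05. For 9 of the 11 the S/S arrays lay wholly above wild type, beside 5.49% of all genes. The mean level of the 11 per array was 7.38 to 7.68 in the S-set wild type and 8.17 to 8.27 in S/S. In the L set it ran from 7.06 to 8.90 in wild type and from 6.75 to 8.20 in L/L, with 1 of 11 higher in L/L and a median of −0.30. The 8.90 was on replicate 3 of the L-set wild type, which had the lowest Mybl1 value of that set (7.75). The 6.75 was on replicate 1 of L/L, which had the highest (8.78). The 7 endothelial markers had a median of 0.21 in S/S and 0.23 in L/L. In S/S 4 of 7 were higher and 3 lower (lowest −0.18), and in L/L 5 of 7 were higher. Their mean level was 7.18 to 7.30 in the S-set wild type, 7.55 to 7.62 in S/S, 7.33 to 7.66 in the L-set wild type and 7.49 to 7.72 in L/L. The 7.33 was on replicate 3 of the L-set wild type and the 7.72 on replicate 1 of L/L. Among the endothelial markers Emcn was at 1.62 in S/S (limma adjusted p = 0.197) and Flt1 at 0.72 (limma adjusted p = 0.0603). The 7 epithelial markers had medians of −0.17 and 0.06, and the 14 fibroblast markers of 0.05 and −0.13. In L/L 11 of the 14 fibroblast markers were lower, and 7 lay wholly below wild type, beside 5.1% of all genes. Without replicate 1 of the S-set wild type the S/S medians were 0.52 for macrophage, 0.04 for endothelial, −0.01 for epithelial and −0.03 for fibroblast markers. None of these markers passed in either mutant, but some did under alternatives. In S/S these were Emcn (each set alone, replicate block, array weights, no male arrays), Flt1 (array weights, no male arrays, without replicate 1 of L/L), Eng (array weights) and Cd68 (1.22, each set alone), and in L/L Krt19 (array weights). With array weights 415 of all genes passed in S/S and 336 in L/L. The part of these markers in the Mybl1 difference was not tested, and in bulk RNA fewer cells of a type cannot be told apart from less RNA per cell.

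Known germline targets of A-MYB had mostly negative S/S differences, none of which passed. The list of 14 genes, expressed in spermatocytes (among them Piwil1, Tdrd1 and Sycp1), had a median of −0.14 in S/S with 2 of 14 higher, and 0 passed. In L/L the median was 0.03 with 9 of 14 higher, and again 0 passed. Without replicate 1 of the S-set wild type, whose list mean was 5.74 against 5.40 and 5.41 in its group, the S/S median was −0.02 with 5 of 14 higher. In S/S the genes of smallest p were the RNA helicase gene Ddx4 (−0.53), Mael (−0.19), Piwil2 (−0.21) and Tdrd6 (−0.20), and in L/L they were Tdrd6 (0.23), Sycp3 (−0.12), Ccnb3 (0.12) and Mael (−0.10). The S/S values were −0.36 (Ddx4), −0.10 (Mael), −0.04 (Piwil2) and −0.10 (Tdrd6) without replicate 1 of the S-set wild type. The mean level of the list was 5.34 to 5.74 on single arrays.

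With set means subtracted, the gene whose pattern was most like that of Mybl1 was Rb1 itself. Likeness was measured as Pearson's r over the 12 arrays after subtracting the mean of each set of 6, and Mybl1 was the only member whose values spanned at least 1 log2 unit, the limit set for this search. Rb1 came first of all genes (r = 0.98, Spearman's rho = 0.97), followed by the transcriptional coactivator gene Eya4 (0.97), the guanylate cyclase subunit gene Gucy1a2 (0.96), Ptar1 (0.96) and the DNA repair gene Ercc5 (0.96). In all, 49 genes reached 0.9. For Rb1, r was 0.85 without subtracting set means, 0.96 without replicate 1 of the S-set wild type, and 0.95 when each group's own mean was subtracted. Without subtracting set means Ercc5 (0.96) and Gucy1a2 (0.95) exceeded Rb1, and Eya4 (0.75) and Ptar1 (0.64) did not. These correlations describe 12 arrays that share their normalization and, within a group, their genotype, and the highest of many correlations is high by selection. Like Mybl1, Rb1 was higher in S/S (0.87, SE 0.17, limma adjusted p = 0.0976) and in L/L (0.36, SE 0.17, limma adjusted p = 1.00), without passing.

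**Figure D3:**
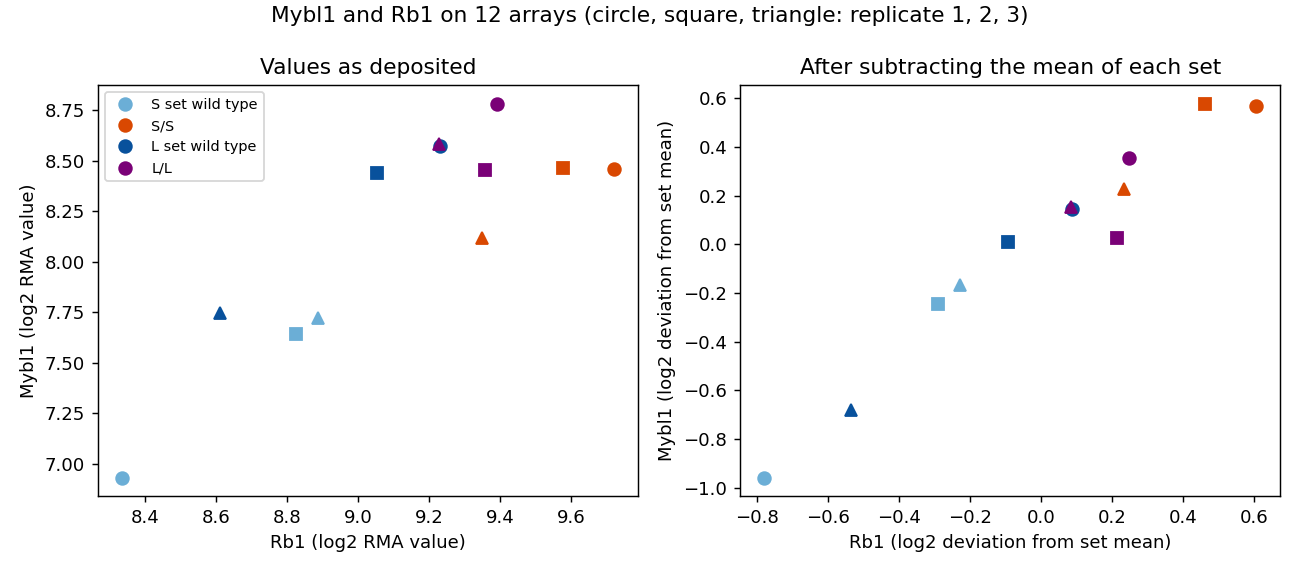
Mybl1 against Rb1 on the 12 arrays, as deposited log2 values on the left and as deviations from the mean of each set on the right. Colours mark the groups and symbols the replicates. Replicate 1 of the S-set wild type is lowest in both genes (Rb1 8.34, Mybl1 6.93), and replicate 3 of the L-set wild type is the lowest of its set in both (8.61 and 7.75).

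Mybl2 was not higher in either mutant. B-MYB is the MYB protein that binds MuvB when quiescence ends, and its own RNA is a common marker of DREAM repression being lifted. Its log2 values were 8.09, 8.32 and 8.56 in the S-set wild type and 7.78, 8.23 and 8.24 in S/S. In the L set the controls read 7.95, 8.06 and 8.05, and the L/L arrays 7.87, 8.03 and 7.94. Groups overlapped in both sets. The S/S difference was −0.24 (SE 0.14, interval −0.55 to 0.07, limma adjusted p = 0.552) and the L/L difference −0.07 (SE 0.14, interval −0.38 to 0.23, limma adjusted p = 1.00). The S/S value became −0.36 without replicate 1 of the S-set wild type and −0.09 without replicate 1 of S/S, the array with the lowest Mybl2 value.

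The start regions of the members were searched for short motifs, since E2F sites are one route by which DREAM reaches its target genes. RefSeq promoter windows (build GRCm38.p6, 250 bases before to 50 after a transcript start) matched 4 of the 6 genes: Mybl2, Lin37, Lin52 and Lin54, the last with 2 starts. The 120 bases just upstream of the start are shown for 3 of them, 5′ to 3′ along the gene, with matches to the E2F core GGCGGGA (either strand) in capitals. Mybl2 lies at chr2:163054515-163054634 on the plus strand, Lin37 at chr7:30559647-30559766 on the minus strand, and Lin52 at chr12:84451388-84451507 on the plus strand.

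Mybl2: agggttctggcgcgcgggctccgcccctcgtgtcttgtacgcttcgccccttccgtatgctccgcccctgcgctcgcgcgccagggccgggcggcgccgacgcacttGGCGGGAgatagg
Lin37: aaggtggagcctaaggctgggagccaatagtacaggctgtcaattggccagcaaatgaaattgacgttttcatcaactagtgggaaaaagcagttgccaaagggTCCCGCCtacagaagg
Lin52: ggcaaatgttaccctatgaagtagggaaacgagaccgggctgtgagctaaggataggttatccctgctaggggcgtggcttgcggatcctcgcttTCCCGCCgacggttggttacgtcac

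Relative to the start, the E2F core began at position −13 in Mybl2, −16 in Lin37 and −25 in Lin52, which had another match at −223. Of the 2 Lin54 windows, 1 had a match, at −89. Over all 32851 windows of the same length 11.3% held this core. The CHR element TTTGAA was found in the Lin37 window and in both Lin54 windows, and not in those of Mybl2 and Lin52, beside 17.9% of all windows. Other spellings of the CHR element were not searched. The MYB core AACGG was in none of these windows, beside 17.4% of all. No match overlapped that of another motif. The letters were chosen after the windows had been seen, and a match describes the sequence only.

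Early cell cycle genes were mostly higher in sign in L/L, and 1 of them passed. They are E2F and DREAM targets that act in the G1 to S transition and in DNA replication, and 22 of the 24 listed were measured. In L/L 21 of 22 had positive differences, beside 55.9% of all genes. The median of the 22 was 0.51, beside 0.02 over all genes, and 1 passed. That was Mcm6, a subunit of the replicative helicase (1.17, SE 0.17, limma adjusted p = 0.0308). Next by p were the chromatin assembly gene Chaf1b (0.95), the cyclin gene Ccne1 (0.57) and the helicase gene Mcm2 (0.69), none of which passed. For 15 of the 22 the L/L arrays lay wholly above wild type, beside 9.71% of all genes. With array weights 13 of the 22 passed in L/L, among them Mcm2, Mcm6, Ccne1, Chaf1b and Orc1.

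The L/L difference of Mybl2, −0.07, lay below those of all 22 early genes, the lowest of which was −0.03. The L-set wild type had the lowest mean of these genes, at 8.01 to 8.49 on single arrays, against 8.66 to 8.76 in L/L, 8.50 to 8.74 in the S-set wild type and 8.40 to 8.56 in S/S. The Mcm6 call was lost in 9 of the 12 fits that left out 1 array, and held without replicate 1 or 2 of the S-set wild type or replicate 3 of the L-set wild type. Without both male arrays the L/L median was 0.39 and 0 genes passed, and without replicate 1 of the S-set wild type 3 passed (Mcm6, Chaf1b and Ccne1). Without replicate 3 of the L-set wild type Mcm6 and Chaf1b passed.

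In S/S the early genes were mostly lower in sign. Of the 22, 5 had positive differences, beside 42.4% of all genes, the median was −0.16, and 0 passed. For 4 of the 22 the S/S arrays lay wholly below wild type, beside 6.29% of all genes. The 4 of smallest p were the origin recognition gene Orc1 (−0.37), Chaf1b (−0.42), the thymidine kinase gene Tk1 (−0.49) and E2f2 (−0.29). Mybl2 at −0.24 lay among them, with 7 of the 22 below it. Without replicate 1 of the S-set wild type, 0 of 22 early and 0 of 27 late genes were positive, with medians of −0.20 and −0.30, and 0 passed. In that fit E2f2 was at −0.09, and Orc1, Chaf1b and Tk1 were at −0.42, −0.37 and −0.58. With array weights Orc1 passed in S/S, as did the late genes Cdk1 and Bub1b and the germline gene Ddx4, where 415 of all genes did.

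Late cell cycle genes, which MuvB activates together with B-MYB and FOXM1 through CHR elements, numbered 27 measured of 28. In S/S 5 of 27 were positive, beside 42.4% of all genes, with a median of −0.26, and 0 passed. For 8 of the 27 the S/S arrays lay wholly below wild type, beside 6.29% of all genes. Cdk1 (−0.39), Bub1b (−0.53), Nek2 (−0.35) and Kif20a (−0.36), which encode kinases and a motor of mitosis, had the smallest p. In L/L 22 of 27 were positive, with a median of 0.15, and again 0 passed, with Cdk1 at 0.42, Kif20a at 0.28, Kif23 at 0.28 and Plk1 at 0.32 leading. For 1 of the 27 the L/L arrays lay wholly above wild type, beside 9.71% of all genes. Without both male arrays the L/L median was −0.01 with 13 of 27 positive.

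**Figure D4:**
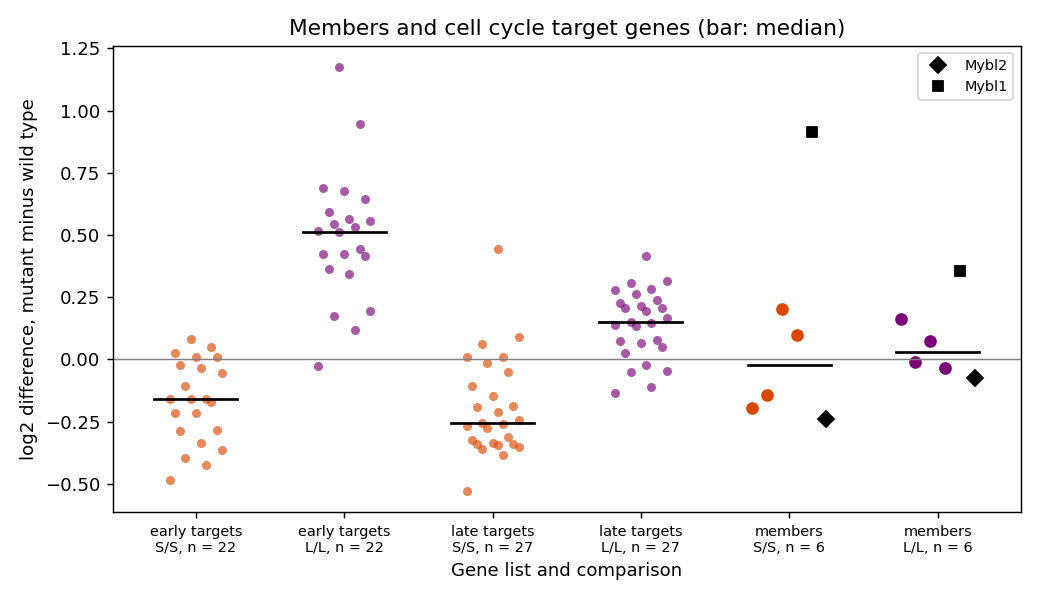
Log2 differences, mutant minus matched wild type, of single early and late cell cycle genes and of the 6 MuvB and MYB genes, with the median as a bar. In L/L the early genes centre on 0.51 while Mybl2 (diamond) is at −0.07, and Mybl1 (square) is the highest of the 6 in both mutants, at 0.91 in S/S and 0.35 in L/L.

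Partners of MuvB in the DREAM complex were measured for 7 of 7 listed genes, and 0 passed in either mutant. Rbl2, which encodes p130, had the largest S/S difference of the 7, 0.55 (SE 0.15, limma adjusted p = 0.232), from 8.59 in wild type to 9.14, with all S/S arrays above wild type. Its L/L difference was −0.22. Rbl1, which encodes p107 and is itself an E2F target, was 0.15 in S/S and 0.61 in L/L (SE 0.19, limma adjusted p = 0.806), with all L/L arrays above wild type. With array weights Rbl1 (0.61, limma adjusted p = 0.0152) and Tfdp1 (0.39, limma adjusted p = 0.00926) passed in L/L, where 336 of all genes did.

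The DNA-binding partners differed little in S/S. There E2f4 was at 0.14, E2f5 at 0.30, and the DP genes Tfdp1 and Tfdp2 at −0.03 and −0.12. In L/L E2f4 was at 0.13, E2f5 at 0.01, Tfdp1 at 0.38 (limma adjusted p = 0.426) and Tfdp2 at 0.23. A second Tfdp1 probe set gave 0.08 in S/S and 0.30 in L/L. Rbbp4, the histone-binding subunit that completes the MuvB core, was at −0.06 in S/S and 0.16 in L/L. The medians of the 7 genes were 0.14 and 0.16. Without replicate 1 of the S-set wild type the S/S median was −0.03, and Rbl2 was at 0.38, Rbl1 at −0.05 and E2f5 at −0.03.

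Regulators of MuvB and MYB proteins, 10 of 10 measured, had medians of 0.02 in S/S and 0.07 in L/L, and 0 passed. The LIN52 kinase gene Dyrk1a was at 0.16 in S/S and −0.03 in L/L, and its second probe set disagreed, at −0.40 and 0.01. Dyrk1b, a related kinase gene, was at −0.02 and 0.07. The Hippo pathway kinase genes Lats1 and Lats2 were at 0.26 and 0.32 in S/S and at −0.16 and 0.06 in L/L, and Yap1, whose product that pathway restrains, was at 0.07 and 0.05.

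Genes that act on or with B-MYB later in the cycle had positive L/L differences, none of which passed. Cdk2 was at 0.12 in S/S and 0.68 in L/L (SE 0.21, limma adjusted p = 0.73), and its partner cyclin gene Ccna2 was at −0.12 and 0.16. Ccnf, a cyclin that restrains B-MYB, was at −0.18 and 0.34, and Foxm1 at −0.15 and 0.17. Myb, the blood cell member of the MYB family, was at −0.21 and −0.01. With array weights Cdk2 (0.72, limma adjusted p = 0.00189) and Ccnf (0.38, limma adjusted p = 0.0462) passed in L/L, where 336 of all genes did. Without replicate 1 of the S-set wild type the S/S values were −0.17 for Cdk2, −0.31 for Foxm1, −0.02 for Myb, 0.10 for Lats1 and 0.13 for Lats2, and the median of the 10 regulators was −0.05.

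Between the wild types the members spread in both directions. The L-set wild type lay wholly above the S-set wild type for 2 of 6 (Lin52 and Mybl1), where 11.5% of all genes did, and wholly below for 2 of 6 (Lin37 and Mybl2), where 16.1% did. Mybl2 was lower by 0.30 on the log2 scale in the L-set wild type (a difference of −0.30, SE 0.14, limma adjusted p = 0.224), Lin37 by 0.24 (−0.24, SE 0.12, limma adjusted p = 0.237) and Lin9 by 0.34 (−0.34, SE 0.13, limma adjusted p = 0.126). Lin54 differed by 0.06. Lin9 passed without replicate 1 of the S-set wild type (−0.44, adjusted p = 0.0379), a fit in which Mybl1 did not. With array weights 4 members passed, where 6520 of all genes did. They were Mybl1 (0.68, limma adjusted p = 0.00127), Lin9 (−0.40, 0.00112), Lin52 (0.24, 0.00336) and Mybl2 (−0.31, 0.00554).

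Among the partners, E2f4 (−0.48, limma adjusted p = 0.0314) and Tfdp1 (−0.54, limma adjusted p = 0.00654) were lower in the L-set wild type and passed, although the second Tfdp1 probe set gave −0.21 and did not (limma adjusted p = 0.297). Among the regulators, Ccna2 (−0.76, limma adjusted p = 0.0101) and Ccnf (−0.63, limma adjusted p = 0.0117) did so. Of the late genes 8 of 27 and of the early genes 7 of 22 passed, all lower in the L-set wild type, beside 8.71% of all genes in both directions (1030 of 19938 lower). Without both male arrays 2 late and 2 early genes passed, and 0 partners and 0 regulators. Without replicate 1 of the S-set wild type 14 late and 11 early genes passed. Counts over all genes also shifted between these fits, as given in the last section. The labels do not say what else differed between the sets. The S/S and L/L comparisons do not share arrays, but each rests on its own wild type, and these wild types differed as described.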

How the data were processed

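Each of 12 RNA samples was measured on an Affymetrix Mouse Gene 1.0 ST array. The values are log2 RMA values (background-corrected, normalized and summarised per probe set), deposited by the authors and made with Partek per the series' design text. That they are logarithms to base 2 was judged from their range (2.43 to 14.7), and the Partek version and genome build are not given in the sources used here. Of 35556 probe sets, 21789 carried 1 gene symbol, 1621 several and 12146 none. Probe sets with 1 symbol gave 19938 genes. Dim probe sets were kept, and precision is limited by how many arrays there are.

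All arrays entered 1 limma 3.58.1 fit of 4 group means (R 4.3.3, 8 residual degrees of freedom), and checked on simulated data. Tests were two-sided, and exact permutation tests compared single genes. The members and 9 gene lists (3 of 122 listed genes were not measured) were chosen with earlier results of these data known. Named were all members, partners and regulators, and the 4 target genes of smallest p per list and mutant. Alternatives were quantile normalization, averaged probe sets, a minimum mean of 6, each set alone, array weights, a replicate block, and leaving out each array or both male arrays. Promoter sequences are RefSeq's (GRCm38.p6), matched by symbol.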

Additional observations from a re-analysis of the deposited data

Results flagged for a closer look

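For 4 of the cell cycle genes named in the report, all S/S arrays lay below their wild type and all L/L arrays above theirs. Of all genes, 6.29% lay wholly below in S/S and 9.71% wholly above in L/L, and the share meeting both was not computed. The early and late genes named were those of smallest p in these comparisons, a choice that favours such separation. The S/S effect less the L/L effect was −1.46 for Mcm6 (limma adjusted p = 0.103), −1.37 for Chaf1b (0.088), −0.88 for Orc1 (0.169) and −0.80 for Cdk1 (0.364), none of which passed in the fit reported. With array weights all 4 passed (0.00171, 0.00499, 0.00238 and 0.0125 in the same order), where 293 of all genes did. Mcm6 and Chaf1b also passed without replicate 3 of the L-set wild type (0.00337 and 0.00377), and Mcm6 without replicate 1 of the S-set wild type (0.0472). In the L-set wild type all 4 had their lowest mean of the 4 groups, 7.84, 8.28, 5.96 and 9.91 in that order. None of the 6 MuvB and MYB genes, which were picked by name and not by p, met this criterion.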

How the results depend on the processing

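The count of members passing in S/S, in L/L and in the difference of effects was 0 under every alternative run. Between the wild types it was 1, and became 2 with genes of mean at least 6, 4 with array weights, 0 without both male arrays and 0 to 1 with single arrays left out. Whether the replicate numbers pair the samples was not settled. Same-numbered arrays had correlations of deviations from −0.12 to 0.60, and differently numbered ones from −0.60 to 0.59. With the replicate block 37 genes passed in S/S and 5 in L/L, and no wild-type comparison was fitted.

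Counts over all genes moved more. In S/S they were 24, then 44 with each set alone, 415 with array weights, 37 without male arrays and 2 to 38 with single arrays left out. In L/L they were 8, then 5 with each set alone, 336 with array weights, 2 without male arrays and 2 to 26 with single arrays left out. For the difference of effects they were 3, then 8 after quantile normalization, 293 with array weights and 3 to 21 with single arrays left out. Between wild types they were 1736, then 2686 after quantile normalization, 6520 with array weights, 304 without male arrays and 525 to 2078 with single arrays left out. The cause of these shifts was not tested.

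Signs reversed for small differences only. With array weights Lin54 became −0.0902 in S/S, 0.00378 in L/L, −0.0940 in the difference of effects and −0.11 between wild types, and Lin37 in L/L became 0.00120. Lin54 was also 0.00315 in L/L without male arrays and −0.00422 between wild types after quantile normalization. With single arrays left out Lin54 ran from −0.0524 to 0.23 in S/S, −0.0167 to 0.27 in the difference of effects and −0.0782 to 0.13 between wild types, and Lin37 in L/L from −0.0515 to 0.0530.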
